A study of Homo sapiens with 4 samples.

Results

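The genes described here carry the cell's own supply of cholesterol: 19 enzymes that build the molecule from acetyl-CoA, 5 regulators of the SREBP pathway, 4 genes of sterol uptake and transport, 2 exporters, the esterifying enzyme SOAT1 and the phosphatidate phosphatase LPIN1. These 32 genes were chosen by name, as members of the pathway, from a table of 64962 gene rows, and every name was present. LSS was listed on 2 rows with the same identifier, the second of which was 0 in every library, so the 32 genes filled 33 rows.

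Cells make cholesterol through mevalonate, isoprenoid diphosphates, squalene and lanosterol, and the intermediate isoprenoids also feed protein prenylation, dolichol and ubiquinone. Transcription of most of these enzymes is driven by the SREBP factors, which SCAP escorts from the endoplasmic reticulum to the Golgi for cleavage when membrane sterol is low, and which the INSIG proteins hold back when sterol is plentiful. Excess sterol is esterified by SOAT1 or exported by the ABC transporters, whose genes are induced by oxysterol receptors, and dividing epithelial cells use the pathway to make membrane.

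The study measured total RNA of HT-29, an established human colorectal cancer cell line, and of NCM460, the line it used for normal colonic epithelium. Each line was sampled without addition and after 24 h with 100 μg/mL of SCS, a chondroitin sulfate from sturgeon, which is a sulfated polysaccharide of cartilage. All 4 cultures were grown in serum, and the study's methods name a larger share of serum for NCM460 than for HT-29, while the labels give the same share for both. There was 1 library per condition, so no test within a line was possible. Intervals of a gene or of summed genes cover counting error only, not the spread between cultures. Intervals of a median cover the spread between genes, which are not independent replicates, and likewise not the spread between cultures. The p-values given come from a single model over all 4 libraries, described with the comparison of the lines.

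The table held scaled counts that came out as whole fragments, of which the libraries held 1156568 to 1654764. The mitochondrial genome took 35.8% of HT-29 fragments without SCS and 13.8% with it, and 62.3% and 46.3% of those of NCM460, which left 507692 to 1383424 nuclear fragments. Levels are given as CPM, fragments scaled by library size and TMM factor, and the log2 fold change, or log2 ratio, compares the CPM with SCS to that of the control. Of 12 colon epithelium markers, 10 were above 0 in HT-29 and 9 in NCM460. CDX1 was at 0 in all 4 libraries, CDX2 in those of HT-29, and KRT20 and VIL1 in those of NCM460. The summed level of the 12 markers was lower with SCS, at 6792 and 3837 CPM in HT-29 and 4880 and 2970 CPM in NCM460. In HT-29 the keratins KRT8 and KRT18 carried most of that sum. CDH1 (0.74), KRT20 (1.11) and CLDN7 (0.72) were called higher in that line, and VIL1 (-2.61), KRT8 (-1.23), KRT19 (-1.17) and KRT18 (-0.97) lower. Of the 10 markers tested in HT-29, 6 had log2 fold changes above 0, with a median of 0.25. In NCM460, 1 of 9 was above 0, with a median of -0.64, and 3 of 9 once the GC trend described below was subtracted. Mesenchymal markers summed to 5.87 and 10.8 CPM in HT-29 and to 205 and 178 CPM in NCM460. The part of these shifts in the sterol results was not tested. RNA per cell was not measured, so a higher share of the library and more RNA per cell cannot be told apart.

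Upstream sequence of 5 members is shown because the SREBP factors and their partner NF-Y bind such DNA, and because the members shown include the regulator SREBF2 and genes that were higher together in HT-29. A RefSeq window of 250 bases before and 50 after the start (GRCh38.p14) was given for 28 of the 32 genes, and ACAT2, FDFT1, SQLE and ABCG1 had none. Where a gene had several starts, it was counted as holding a motif when any of its windows did. The stretches below run 5′ to 3′ on the strand of the gene and end before the start of the gene in GENCODE 29, except for IDI1, whose 30 bases lie ahead of an inner start. Capitals mark CACNCCAC, the core of the sterol regulatory element, and CCAAT, the box bound by NF-Y, on either strand, so that CCAAT on the opposite strand reads ATTGG.
SREBF2 (chr22:41832955-41833078, plus strand): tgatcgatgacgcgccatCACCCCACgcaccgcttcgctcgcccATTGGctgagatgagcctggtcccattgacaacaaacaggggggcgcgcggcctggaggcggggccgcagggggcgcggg
INSIG1 (chr7:155297628-155297775, plus strand): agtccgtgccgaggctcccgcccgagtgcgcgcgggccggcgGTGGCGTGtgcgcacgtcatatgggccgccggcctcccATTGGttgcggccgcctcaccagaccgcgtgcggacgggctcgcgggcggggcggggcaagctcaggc
IDI1 (chr10:1048992-1049021, minus strand): gcgCCAATTGGccgggcgatGTGGCGTGga
HMGCS1 (chr5:43313513-43313662, minus strand): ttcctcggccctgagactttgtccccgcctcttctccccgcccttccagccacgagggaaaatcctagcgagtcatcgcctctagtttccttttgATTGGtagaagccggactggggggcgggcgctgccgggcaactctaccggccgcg
FDPS (chr1:155308616-155308743, plus strand): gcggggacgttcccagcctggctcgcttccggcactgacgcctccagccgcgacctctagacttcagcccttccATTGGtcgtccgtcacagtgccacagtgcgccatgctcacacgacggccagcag

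CACNCCAC was found in 5 members (ABCA1, IDI1, INSIG1, SC5D and SREBF2), or 17.9%, against 7.98% of 15843 protein-coding genes with a window. Of the 16 enzymes with a window, 2 held it. So did 3 of the 19 members with a window that were called higher in HT-29 and 2 of the 9 that were not. The CCAAT box was found in 20 members, or 71.4%, against 42.1% of coding genes, and in 14 of the 16 enzymes with a window, all but CYP51A1 and PMVK. GGGCGG, the box bound by SP1, was found in 27 members, or 96.4%, against 64.3% of coding genes, with NSDHL the exception. A match describes these letters only and does not show that a factor was bound.

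In HT-29, cholesterol synthesis genes were higher with SCS along the whole chain from HMGCS1 to DHCR7, with the exception of PMVK. A gene was called when its fold change passed 1.5 and its counting interval excluded 0. By this rule 22 of the 31 members with fragments were called higher, and none was called lower, where 16.8% of the 12168 loci tested were called higher, 14.8% were called lower and 31.5% were called in either direction. Among the 19 enzymes, 18 were called higher, and the median log2 fold change of the 19 was 1.56 (95% interval 0.86 to 1.98). The median over all 31 members was 1.00 (0.79 to 1.89), beside a median of 0.07 over all loci. With the libraries scaled by total fragments instead, the median of all loci moved to 0.31, 24 members were called higher, and the split of all loci was 3148 higher and 1115 lower in place of 2040 and 1799.

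The 19 enzymes together held 2563 fragments in the HT-29 control and 9935 with SCS. That was 0.241% of the nuclear fragments (exact 95% interval 0.232 to 0.251) and 0.718% (0.704 to 0.732). The log2 ratio of their summed CPM was 1.72 (1.66 to 1.79), and it was 1.75 (1.68 to 1.82) without SQLE, which alone supplied 21.6% of the enzyme fragments in the control and 20.1% with SCS. The ratio was thus as large without the most abundant enzyme.

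NCM460 gave a mixed picture. Of the 29 members tested there, 10 were called higher and 4 lower, where 15.4% of 12657 loci were called higher and 13.8% lower, and the median was 0.48 (-0.11 to 1.56) beside 0.03 over all loci. The 10 were HMGCS1, IDI1, GGPS1, FDFT1, CYP51A1, MSMO1, SC5D, INSIG1, STARD4 and SOAT1, and the 4 were MVK, TM7SF2, SCAP and SREBF1. The remaining 3 members, SQLE, ABCA1 and ABCG1, had no fragment in either NCM460 library. The enzymes together held 440 fragments in the control and 970 with SCS, or 0.0867% (0.0788 to 0.0952) and 0.156% (0.146 to 0.166) of nuclear fragments, and the log2 ratio of their summed CPM was 0.67 (0.50 to 0.83). Scaling by total fragments moved the median of all loci in NCM460 to 0.65, with 3945 called higher and 248 lower in place of 1943 and 1747, and called 15 members higher and none lower.

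The changes in NCM460 also followed the base composition of the transcripts. Across 12600 loci, the Spearman correlation of log2 fold change with transcript GC content was -0.61 in NCM460, and it was -0.90 over the 18 enzymes tested; in HT-29 the values were -0.12 over 12106 loci and -0.39 over 19 enzymes. All points share the same pair of libraries, and genes are not independent replicates. When the smooth GC trend of all loci was subtracted, 7 members stayed called higher or became so in NCM460 (HMGCS1, MVD, IDI1, FDFT1, CYP51A1, MSMO1 and INSIG1) and none was called lower, where 6.19% of loci were called higher and 6.6% lower. The enzyme median was then 0.57 (0.42 to 0.91). In HT-29, 22 members remained called higher after the subtraction, with an enzyme median of 1.47 (0.85 to 1.84), where 14.5% of loci were called higher, 15.9% lower and 30.4% in either direction. For the members, NCM460 values are given below with and without this trend where it moved the call.

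**Figure D1:**
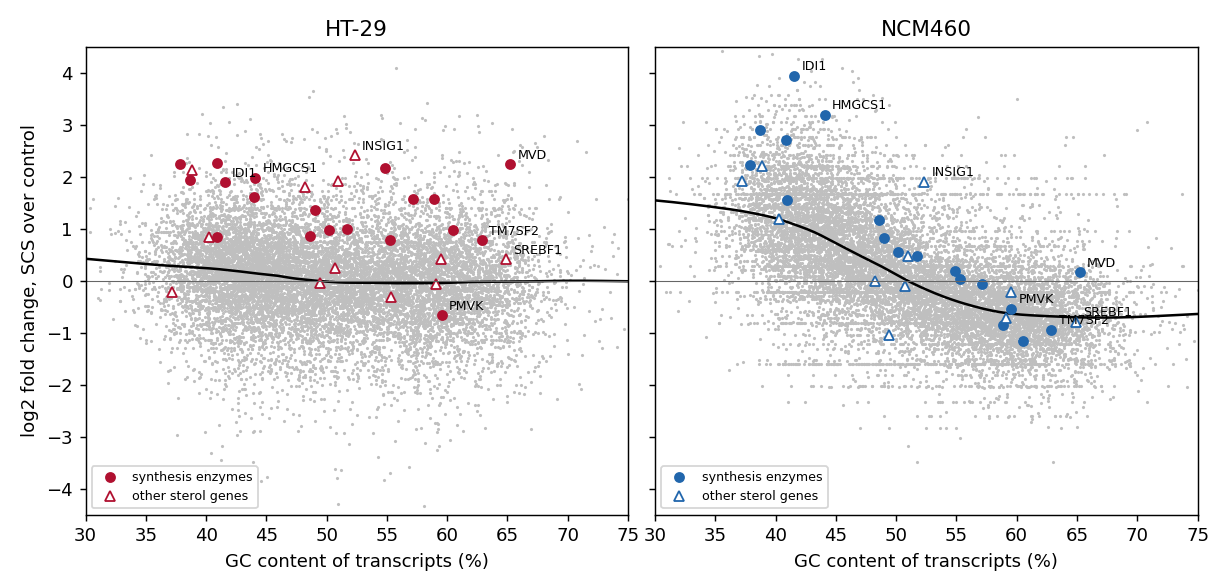
Log2 fold change (SCS over control, y axis) against the GC content of each gene's transcripts in percent (x axis), HT-29 on the left and NCM460 on the right; grey points are all loci, filled circles the synthesis enzymes, open triangles the other sterol genes, and the black line is the smooth trend of all loci. In HT-29 the enzymes stand above a nearly flat trend, apart from PMVK, whereas in NCM460 they follow the slope, with a correlation of -0.90 over 18 enzymes.

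The pathway opens with ACAT2, the cytosolic thiolase that joins acetyl units, and HMGCS1, the synthase that makes HMG-CoA from them. HMGCS1 (chr5:43289395-43313512) had 335 fragments in the HT-29 control and 1564 with SCS, and 8 and 113 in NCM460. Its log2 fold change was 1.98 (1.82 to 2.17) in HT-29 and 3.20 (2.32 to 4.59) in NCM460, and 2.36 (1.48 to 3.76) in NCM460 with the GC trend subtracted. It was called higher in both lines under all 13 alternative settings. ACAT2 had 53 and 126 fragments in HT-29, a log2 ratio of 0.98 (0.54 to 1.51), and 8 and 17 in NCM460, where its value of 0.56 (-0.68 to 2.03) was not called.

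Mevalonate is then phosphorylated by MVK and PMVK, decarboxylated by MVD, isomerized by IDI1 and condensed to longer isoprenoids by FDPS and GGPS1. In HT-29, 5 of these 6 genes were called higher. MVD went from 79 to 451 fragments, a log2 ratio of 2.24 (1.93 to 2.64). FDPS went from 101 to 543, 2.17 (1.89 to 2.52), and IDI1 from 145 to 640, 1.89 (1.65 to 2.18). The intervals of these 3 overlapped. FDPS, like HSD17B7 further down the chain, has pseudogene copies, between which reads may have been split. MVK, with 28 and 68 fragments, had a log2 ratio of 0.98 (0.39 to 1.74), and GGPS1, with 32 and 70, had 0.85 (0.27 to 1.55). PMVK, with 23 and 16 fragments and a value of -0.66 (-1.77 to 0.23), was the only enzyme below 0 in HT-29.

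The same 6 genes split in NCM460. IDI1 (chr10:1039908-1049170) had 1 fragment in the control and 41 with SCS, a CPM ratio of 29.5 with a counting interval of 2.33 to 10.2 on the log2 scale, and the GC-subtracted log2 value was 2.86 (1.24 to 9.14). GGPS1, with 4 and 19 fragments, had a log2 ratio of 1.56 (0.19 to 3.79) that fell to 0.42 (-0.95 to 2.65) and was no longer called once the trend was subtracted. MVD (41 and 64 fragments) and FDPS (50 and 79) had values of 0.17 (-0.42 to 0.77) and 0.18 (-0.34 to 0.73). With the trend subtracted MVD had 0.87 (0.28 to 1.47), which was called, and FDPS 0.56 (0.04 to 1.11), which was not. MVK (chr12:109573255-109598117) went the other way, with 19 and 11 fragments and a log2 ratio of -1.17 (-2.48 to -0.12); after subtraction it was -0.51 (-1.83 to 0.54) and not called. PMVK, with 14 and 13 fragments, was at -0.53 (-1.79 to 0.62).

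Squalene and lanosterol are made by FDFT1, the squalene synthase, SQLE, the epoxidase and a rate-limiting step, and LSS, the cyclase. SQLE had the most fragments of any member in HT-29, with 553 in the control and 1999 with SCS, a log2 ratio of 1.62 (1.49 to 1.76). Per transcript length it also stood at the top of the set in that line, at 84.2 and 231 FPKM. Both NCM460 libraries listed SQLE at 0, where 3 fragments would correspond to 3.85 CPM in the control and 2.77 CPM with SCS. LSS had 102 and 363 fragments in HT-29, a log2 ratio of 1.58 (1.28 to 1.93), and 23 and 17 in NCM460, -0.86 (-1.91 to 0.06). Its row carried an identifier from an alternate scaffold of chromosome 21. FDFT1 was called higher in both lines, with 185 and 397 fragments in HT-29, 0.86 (0.61 to 1.13), and 53 and 168 in NCM460, 1.18 (0.74 to 1.66), and it was called higher in NCM460 also with the trend subtracted, at 0.88 (0.44 to 1.37).

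Lanosterol is turned into cholesterol by 8 members, all of which were called higher in HT-29, from 0.78 for TM7SF2 to 2.26 for CYP51A1. CYP51A1 (chr7:92112151-92142952), the lanosterol demethylase, had 230 and 1305 fragments, a log2 ratio of 2.26 (2.07 to 2.48), on a locus whose values it shared with LRRD1. SC5D, the sterol desaturase, had 63 and 361 fragments and a value of 2.24 (1.90 to 2.70). MSMO1 (chr4:165327623-165343160), the methylsterol oxidase, had 130 and 597, 1.95 (1.69 to 2.25). DHCR7, the terminal reductase, had 256 and 895, 1.56 (1.37 to 1.78). The smallest CPM ratio among these 4 genes was 2.98, for DHCR7.

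Smaller differences in the same segment came from HSD17B7, the ketosterol reductase, with 15 and 50 fragments and a log2 ratio of 1.36 (0.65 to 2.44), and NSDHL, the dehydrogenase of the demethylation complex, with 35 and 85 and a value of 1.00 (0.46 to 1.66). EBP, the sterol isomerase, had 98 and 201 fragments, 0.79 (0.45 to 1.17). TM7SF2 (chr11:65111845-65116384), a sterol reductase, had 100 and 204, 0.78 (0.44 to 1.16), on a locus whose values it shared with VPS51.

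In NCM460, 3 of the 8 were called higher and 1 lower. MSMO1 had 9 and 102 fragments, a log2 ratio of 2.90 (2.05 to 4.20), and CYP51A1 had 8 and 80, 2.70 (1.80 to 4.11). Both stayed called with the GC trend subtracted, at 1.62 (0.77 to 2.92) and 1.57 (0.66 to 2.97). SC5D had 2 and 18 fragments, a CPM ratio of 6.48 with a log2 interval from 0.63 to 5.85, and its GC-subtracted value of 0.91 (-0.68 to 4.53) was not called. TM7SF2 fell from 81 to 58 fragments, with a log2 ratio of -0.94 (-1.47 to -0.45) that became -0.26 (-0.78 to 0.23) without the trend. The other 4, DHCR7 (84 and 112 fragments), EBP (24 and 34), NSDHL (9 and 18) and HSD17B7 (2 and 6), had log2 values between -0.06 and 0.83 and none was called.

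**Figure D2:**
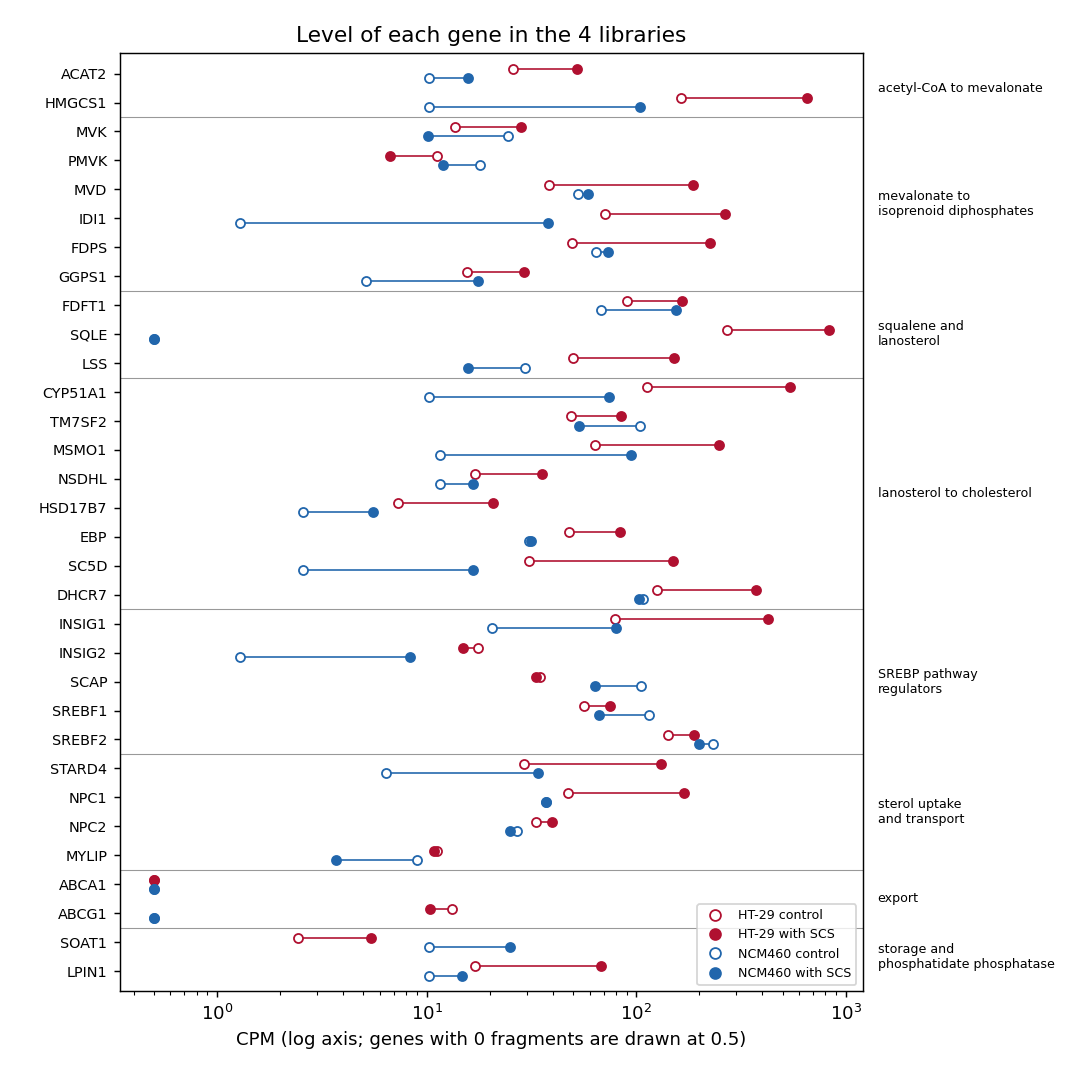
CPM of each of the 32 genes (x axis, log scale) in the HT-29 control (open red), HT-29 with SCS (filled red), NCM460 control (open blue) and NCM460 with SCS (filled blue), ordered by step of the pathway, with genes at 0 drawn at the left edge. The red lines run to the right for all enzymes but PMVK, and SQLE reaches 832 CPM in HT-29 with SCS while it lies at 0 in NCM460.

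Among the regulators, INSIG1 stood apart. INSIG1 (chr7:155297776-155310235), whose protein retains SCAP in the endoplasmic reticulum and whose gene is itself an SREBP target, had 162 and 1028 fragments in HT-29 and 16 and 87 in NCM460. Its log2 fold change of 2.42 (2.19 to 2.68) overlapped in its interval with those of CYP51A1, MVD and SC5D, among others, in HT-29, and it was 1.91 (1.19 to 2.84) in NCM460 and 2.06 (1.34 to 2.99) there with the trend subtracted. INSIG2, its paralogue, had 36 fragments in each HT-29 library, a log2 ratio of -0.22 (-0.94 to 0.48). In NCM460 it had 1 and 9 fragments, a CPM ratio of 6.48 with a log2 interval of -0.16 to 8.15.

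The genes of the SREBP factors themselves did not pass the rule in HT-29. SREBF2, which encodes the factor mainly tied to cholesterol synthesis, had 291 and 456 fragments in HT-29, a log2 ratio of 0.41 (0.20 to 0.63), and SREBF1, tied more to fatty acid synthesis, had 115 and 181, 0.41 (0.08 to 0.77). Both intervals lay above 0 but neither gene reached 1.5-fold. With the libraries scaled by total fragments both did, at 0.69 (0.48 to 0.91) for SREBF2 and 0.69 (0.35 to 1.05) for SREBF1, so this result depended on the scaling. SCAP, the escort of the factors, had 71 and 80 fragments and a value of -0.06 (-0.54 to 0.42). In NCM460, SREBF1 (90 and 72 fragments) was at -0.78 (-1.26 to -0.33) and SCAP (82 and 69) at -0.71 (-1.21 to -0.24), both called lower. With the GC trend subtracted they were at -0.08 and -0.09 and were not called. SREBF2 had 181 and 216 fragments there, -0.22 (-0.51 to 0.07), and 0.41 (0.12 to 0.71) with the trend subtracted. Activity of the factors was not measured, since it depends on cleavage of the proteins.

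Of the uptake and transport genes, STARD4, a cytosolic sterol carrier, and NPC1, the lysosomal membrane protein that releases lipoprotein cholesterol, were called higher in HT-29. STARD4 (chr5:111496033-111512590) had 60 and 317 fragments, a log2 ratio of 2.12 (1.77 to 2.59), and NPC1 had 97 and 408, 1.81 (1.52 to 2.18). NPC2, the soluble partner of NPC1, had 68 and 95 fragments and a value of 0.24 (-0.21 to 0.72), on a locus shared with MIR4709. MYLIP, a ubiquitin ligase that removes lipoprotein receptors, had 23 and 26 fragments, -0.05 (-0.92 to 0.82). The intervals of NPC1 and NPC2 did not overlap in HT-29.

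In NCM460, STARD4 had 5 and 37 fragments, a log2 ratio of 2.21 (1.06 to 4.12), but 0.94 (-0.20 to 2.85) with the GC trend subtracted and -0.17 on the FPKM scale. NPC1 had 29 and 40 fragments, -0.01 (-0.74 to 0.73), and NPC2 had 21 and 27, -0.11 (-0.99 to 0.78). MYLIP had 7 and 4, -1.05 (-3.50 to 0.69). Of this group only STARD4 was called in NCM460, and its call was lost with the trend.

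Neither exporter was called in either line. ABCA1, the transporter that loads cholesterol onto apolipoproteins, had no fragment in any library, where 3 fragments would correspond to 1.25 to 3.85 CPM. ABCG1, which exports cholesterol to lipoprotein particles, had 27 and 25 fragments in HT-29, a log2 ratio of -0.31 (-1.19 to 0.50), and none in NCM460. LPIN1, a phosphatidate phosphatase of triglyceride synthesis and a known SREBP target, had 35 and 164 fragments in HT-29, 1.92 (1.46 to 2.57), and 8 and 16 in NCM460, 0.48 (-0.78 to 1.96). SOAT1, which stores cholesterol as ester, had 5 and 13 fragments in HT-29, 0.85 (-0.43 to 2.99), and 8 and 27 in NCM460, 1.18 (0.10 to 2.63). The NCM460 value of SOAT1 was called, but it was -0.0016 with the GC trend subtracted and -0.80 on the FPKM scale with 0.1 added.

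**Figure D3:**
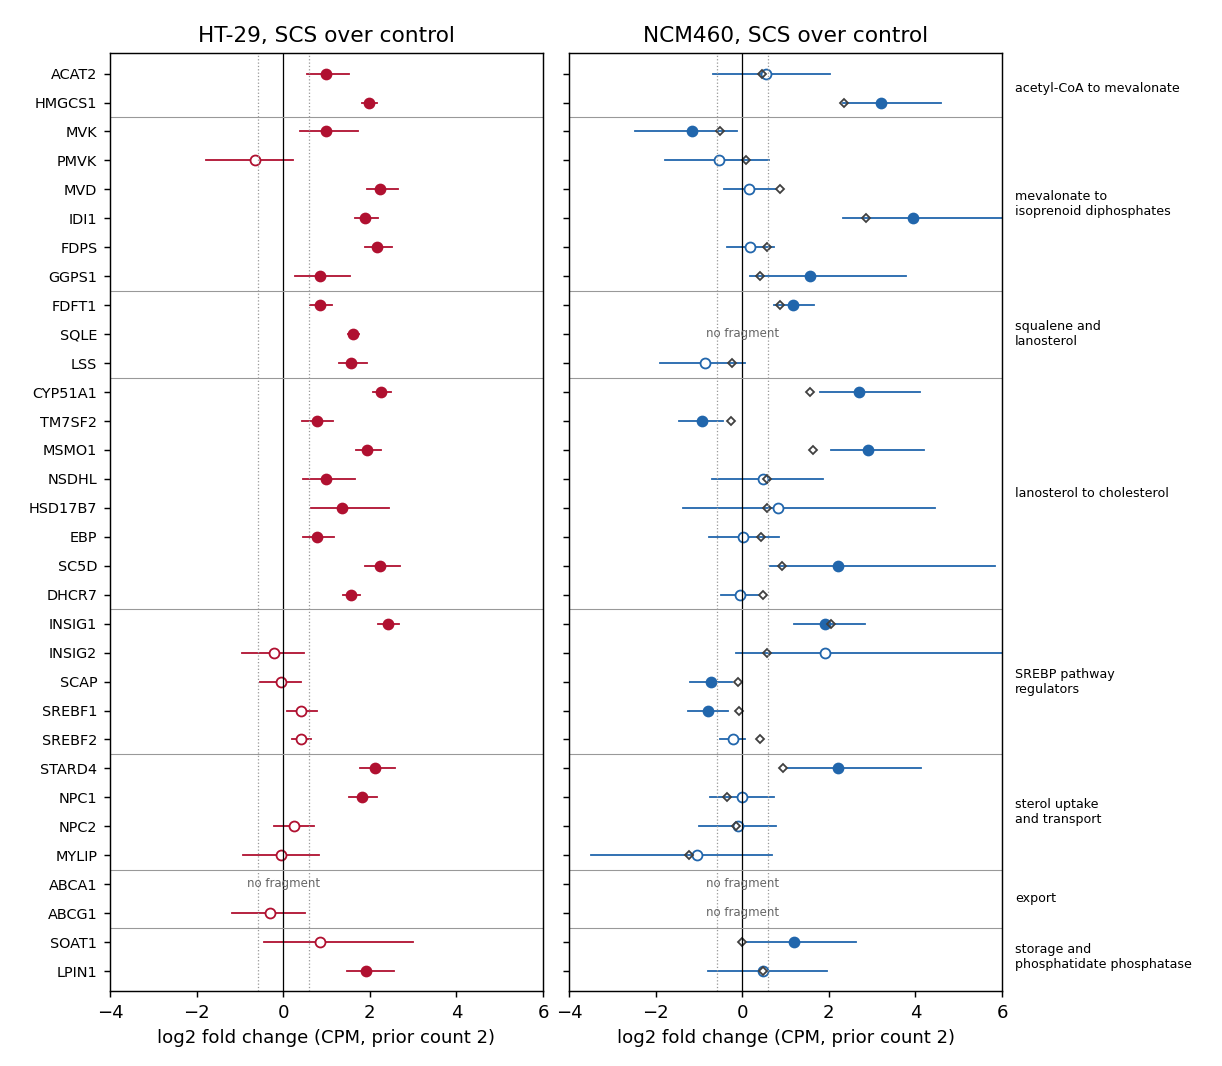
Log2 fold change (SCS over control, x axis, CPM with a prior count of 2) with its 95% counting interval for each gene, HT-29 on the left and NCM460 on the right; filled circles are called genes, open circles genes not called, grey diamonds the NCM460 value with the GC trend subtracted, and dotted lines mark 1.5-fold. In HT-29, 22 genes lie to the right with filled circles and none to the left, and in NCM460 the diamonds lie closer to 0 than the circles for most genes at either extreme.

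Of the 29 members tested in both lines, 9 were called higher in both: HMGCS1, IDI1, GGPS1, FDFT1, CYP51A1, MSMO1, SC5D, INSIG1 and STARD4. That was 42.9% of the 21 members called higher in HT-29 and 90.0% of the 10 called higher in NCM460. Over the 10849 loci tested in both lines, 458 were called higher in both, or 24.8% of the HT-29 calls and 24.1% of the NCM460 calls. With the GC trend subtracted, 7 members were called higher in both lines, which was every one of the NCM460 calls, where 145 of 10808 loci were, or 19.3% of the NCM460 calls. The control libraries of the lines were separate, so these overlaps share no sample.

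A test over libraries was possible only for an SCS effect common to both lines, in an additive model of line and SCS that took the difference between the lines as its error, with 1 residual degree of freedom. In edgeR's quasi-likelihood test, 2 of the 31 members tested had an adjusted p under 0.05, HMGCS1 (adjusted p = 0.0229) and CYP51A1 (adjusted p = 0.0373), both higher, where 0.0309% of 12942 loci passed higher and 0.0386% lower. At an unadjusted p under 0.05, 11 members were higher and none lower, beside 443 and 252 of all loci. With the GC trend of each line in the same edgeR fit, 4 members passed, INSIG1 (adjusted p = 0.00127), HMGCS1 (0.00638), CYP51A1 (0.0251) and IDI1 (0.0275), beside 24 loci higher and 27 lower over the whole table. The fitted log2 fold changes of these 4 lay between 1.92 and 2.32.

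The difference between the lines was also estimated gene by gene, as the log2 fold change in HT-29 minus that in NCM460 with an exact conditional interval. It lay above 0 for 9 of 29 members, namely MVK, MVD, FDPS, LSS, TM7SF2, DHCR7, SREBF1, SREBF2 and NPC1. It lay below 0 for HMGCS1, at -1.36 (-2.62 to -0.31), IDI1, at -2.97 (-8.32 to -0.39), and MSMO1, at -1.06 (-2.27 to -0.03). With the GC trend of each line subtracted, none lay below 0 and 7 lay above. These were LSS at 1.94 (0.91 to 2.99), NPC1 at 2.17 (1.35 to 2.97), MVK at 1.67 (0.33 to 3.08), FDPS at 1.67 (1.04 to 2.29), MVD at 1.42 (0.72 to 2.12), DHCR7 at 1.14 (0.67 to 1.62) and TM7SF2 at 1.09 (0.46 to 1.72). For the other 22 the interval included 0, which does not show that the lines responded alike. The difference was estimated for the members only, so no share over all loci stands beside these counts.

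Without SCS the lines already differed in these genes, and this comparison too followed base composition, with a Spearman correlation of -0.49 between GC content and the log2 difference over 12648 loci of the same pair of control libraries. SQLE was at 270 CPM in the HT-29 control, at least 70.2-fold higher than the level of 3 fragments in the NCM460 control, which had none. HMGCS1 was at 164 CPM against 10.3 in NCM460, a log2 difference of 3.84 (3.0 to 5.22) that was 2.89 (2.05 to 4.27) with the GC trend of this comparison subtracted. CYP51A1 was at 112 against 10.3 CPM, 3.30 (2.45 to 4.68), and 2.0 (1.15 to 3.38) after subtraction. These genes, like INSIG1 (79.2 against 20.5 CPM, 1.88, and 2.06 after subtraction, with an interval from 1.38 to 2.97), were higher in HT-29 either way.

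MSMO1, at 63.5 against 11.6 CPM, fell from 2.34 (1.49 to 3.62) to 0.91 (0.06 to 2.19). In the opposite direction, SCAP was at 34.7 against 105 CPM, -1.57 (-2.08 to -1.13), and still at -0.87 (-1.38 to -0.43) after subtraction. TM7SF2, at 48.9 against 104 CPM and -1.07 (-1.53 to -0.65), SREBF1, at 56.2 against 116 and -1.02 (-1.45 to -0.63), and SREBF2, at 142 against 232 and -0.70 (-0.98 to -0.43), had intervals that included 0 after subtraction, at -0.16, -0.03 and 0.02. FDFT1, at 90.4 and 68.1 CPM, had an interval that included 0 either way. DHCR7, at 125 and 108 CPM, had 0.21 (-0.15 to 0.59) and, after subtraction, 0.76 (0.40 to 1.13), above 0.

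Compared per transcript length within HT-29, the highest members in the control after SQLE were DHCR7 at 66.4 FPKM, EBP at 59.3 and HMGCS1 at 43.4. With SCS they were DHCR7 at 173, FDPS at 152, HMGCS1 at 149 and INSIG1 at 142 FPKM. In NCM460 the control was led by TM7SF2 at 90.7 FPKM, and the library with SCS by FDFT1 at 75.8 FPKM. PMVK and MYLIP were among the 5 lowest members with SCS in HT-29, at 4.46 and 3.37 FPKM.

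The wider sterol system was set beside the 32 genes through 7 further lists of 78 gene names. In HT-29, 17 of the 68 loci tested from these lists were called higher, or 25.0% beside 16.8% of all loci, and 12 lower, or 17.6% beside 14.8%. The median log2 fold change was 0.03 (-0.27 to 0.26), and with the GC trend subtracted 15 were called higher and 14 lower. In NCM460, 11 of 64 were called higher and 10 lower, or 17.2% and 15.6%, near the 15.4% and 13.8% of all loci, with a median of 0.36 (-0.07 to 0.65). With the trend subtracted these were 4 and 3, or 6.25% and 4.69%, near the 6.19% and 6.6% of all loci, at a median of 0.03 (-0.14 to 0.17). The shares called in HT-29 lay below that of the synthesis enzymes, as the bars of calls by list show. Counts of the single lists below are to be read beside these shares over all loci, since each list holds few loci.

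**Figure D4:**
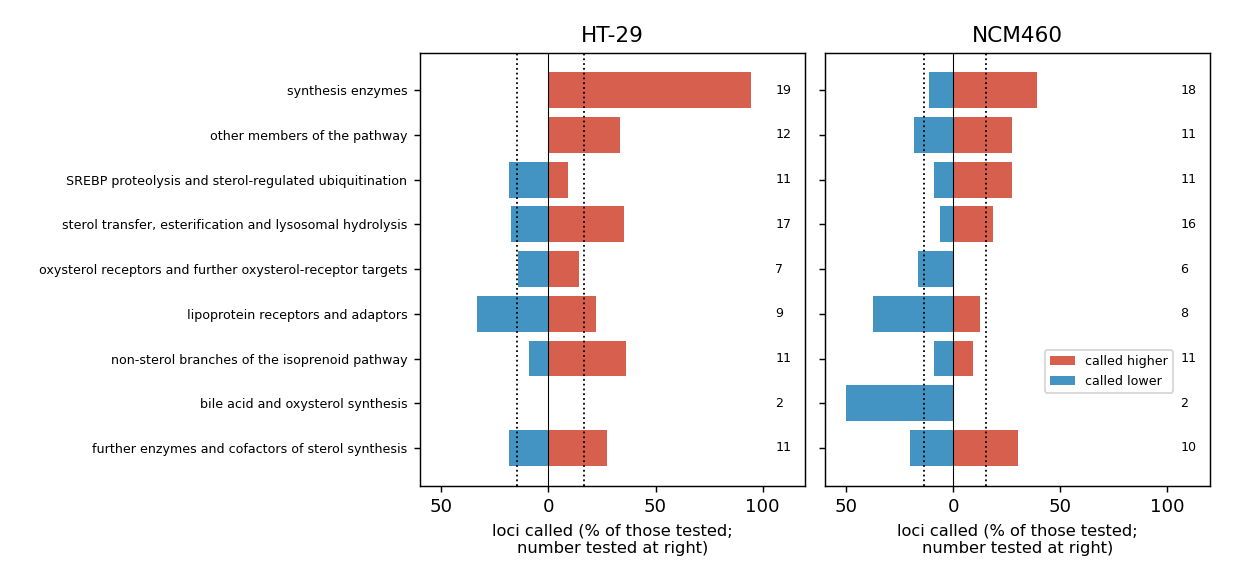
Loci called higher (red, to the right) and lower (blue, to the left) as a percentage of those tested in each list, HT-29 on the left and NCM460 on the right, with the number tested at the right edge and dotted lines at the shares over all loci. The synthesis enzymes in HT-29, with 18 of 19 called higher, extend farthest, and no other list in that line reaches 50%.

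Sterol transfer and lysosomal hydrolysis was the list nearest in function to STARD4 and NPC1, and 6 of its 17 loci were called higher in HT-29 and 3 lower. LIPA, the lysosomal acid lipase that frees cholesterol from its esters, had 37 and 118 fragments, a log2 ratio of 1.38 (0.90 to 2.02). TMEM97, a partner of NPC1, had 61 and 178, 1.28 (0.89 to 1.76). The oxysterol-binding proteins OSBPL9 (1.30), OSBP (0.65) and OSBPL2 (0.65) were called higher too, and STARD5, with 0 and 8 fragments, was at least 2.27-fold higher than the level of 3 fragments. GRAMD1B, which carries sterol from the plasma membrane, had 75 and 23 fragments, -1.81 (-2.68 to -1.25), and VPS4A (-0.82) and OSBPL5 (-0.60) were also lower, OSBPL5 no longer called with the GC trend subtracted. In NCM460, OSBPL10 (1.38), SCARB2 (1.25) and NCEH1 (2 and 13 fragments) were called higher and GRAMD1A (-0.63) lower, and of these OSBPL10 alone was called with the trend subtracted.

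In HT-29, 16.8% of all loci were called higher and 14.8% lower. Among enzymes and cofactors around sterol synthesis, 3 of 11 loci (27.3%) were called higher there and 2 (18.2%) lower. Among the former, C14orf1, the scaffold of the demethylation complex now named ERG28, had 29 and 82 fragments, a log2 ratio of 1.20 (0.64 to 1.93), and POR, the electron donor of CYP51A1 and SQLE, had 80 and 148, 0.64 (0.25 to 1.07). EBPL, a relative of EBP, had 29 and 7 fragments, -1.88 (-3.72 to -1.06), and CYB5R3 was at -0.63. In NCM460, LBR (1.79), ACAT1 (1.27) and PGRMC1 (1.26) were called higher and POR (-0.82) and CYB5R3 (-0.76) lower, 3 and 2 of 10. With the GC trend subtracted LBR alone was called, at 1.23, while ACAT1 was at 0.23, PGRMC1 at 0.41, POR at -0.21 and CYB5R3 at -0.10. In HT-29 the subtraction left 3 called higher and raised those called lower to 4, with LBR (-0.62) and CYB5B (-0.63) added, so that LBR was called in opposite directions in the lines.

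The non-sterol branches that draw on FDPS and GGPS1 products had 4 loci called higher and 1 lower of 11 in HT-29. PGGT1B (1.09) and FNTA (1.01), subunits of the protein prenyltransferases, and DHDDS (0.61) and NUS1 (0.59), which together make dolichol, were the 4, while PDSS1, of ubiquinone synthesis, had 9 and 1 fragments. With the GC trend subtracted NUS1, at 0.31, was no longer called and FNTB, at -0.68, was called lower. NUS1 was called higher in NCM460 as well (1.47), where RABGGTA (-1.69) was lower, but after the subtraction NUS1 was at 0.16 and not called, RABGGTA stayed lower at -1.05, and RABGGTB became so at -0.76.

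In the SREBP proteolysis and ubiquitination list, 1 of 11 loci (9.09%) was called higher in HT-29, RNF145 (0.66). Called lower were 2 (18.2%), among them ERLIN1 (-0.71), beside 16.8% of all loci higher and 14.8% lower. With the GC trend subtracted RNF145, at 0.51, was not called. In NCM460, ERLIN1 (0.76), ERLIN2 (2 and 26 fragments) and MBTPS2 (1 and 20 fragments), a protease that releases SREBP, were called higher and AUP1 (-0.96) lower. With the trend subtracted ERLIN2 alone was called, at 2.0 (0.51 to 5.62), while MBTPS2 was at 1.64 (-0.11 to 7.91), AUP1 at -0.32 and ERLIN1 at -0.50, below 0. Lipoprotein receptors and adaptors moved in either direction in HT-29, with LRP1 (0.88) and VLDLR (4 and 21 fragments, 1.63) called higher and LRP5 (-1.0), LRP8 (-0.84) and SORT1 (-0.71) lower of 9. In NCM460, LRP6 (0.98) was called higher and 3 of 8 lower, among them LRP1 (-1.30) and SCARB1 (-0.98), the receptor for high-density lipoprotein. None of these 4 calls held with the trend subtracted, where LRP6 was at 0.70 (-0.10 to 1.67), LRP1 at -0.69 and SCARB1 at -0.35, and LRP8, lower in HT-29, was called higher at 0.95 (0.11 to 1.90).

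Of the oxysterol receptors and their further targets, NR1H2 had 63 and 137 fragments in HT-29, 0.86 (0.45 to 1.34), and its partner RXRA had 190 and 113, -0.96 (-1.33 to -0.64). RXRA was lower in NCM460 too, with 46 and 17 fragments, -1.83 (-2.81 to -1.08), and -1.12 (-2.10 to -0.37) with the GC trend subtracted. The other loci of that list were not called, and ABCA1 and ABCG1, targets of the same receptors, are described above. In bile acid and oxysterol synthesis, EPHX1 (0.21) and HSD3B7 (-0.36) were the loci tested in HT-29 and neither was called, and HSD3B7 (-0.66) was called lower in NCM460, on a locus shared with SETD1A, but was at 0.03 and not called with the trend subtracted. ERLIN1, MBTPS2, VPS4A, OSBPL9, STARD5, FNTA, FNTB, RABGGTB, CYB5B and POR likewise shared their values with overlapping genes. So did the epithelium markers KRT18 and CLDN7.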

How the data were processed

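Total RNA of HT-29 and NCM460 cells, with and without SCS, was sequenced by the authors as paired-end Illumina reads, 1 library per condition. The submitters' processing notes name bcl2fastq 2.17.1.14, cutadapt 1.9.1, Bowtie2, HTSeq 0.6.1 and build hg19, while 93.6% of 17684 identifiers in the deposited table carry the GRCh38 positions of GENCODE 29; the annotation release is not given in the sources used here. The study's methods name Cuffdiff. The deposited count column is a scaled signal, fragments divided by the authors' size factor for each library, and was restored to whole fragments. Within 0.05 fragments, 99.8 to 99.9% of values were whole. The deposited FPKM values, normalized to transcript length and depth, served only for levels per length and as an alternative. No column of a sample outside the series was present, and rows with no gene name (26) held at most 0.0352% of counts.

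Genes with identical values in all libraries were merged, which gave 18650 loci. Library sizes included the mitochondrial fragments, and TMM factors (edgeR 4.0.16, R 4.3.3) were 1.24 and 1.50 for the HT-29 control and SCS libraries and 0.578 and 0.935 for those of NCM460. A locus entered the comparison when its mean over the line's libraries reached 1 CPM. Log2 fold changes used a prior count of 2, and their intervals were exact 95% Clopper-Pearson intervals of the fragments. Intervals of a median were 95% order-statistic intervals over genes. A floor of 3 fragments stood for 0. Within a line no test could be fitted, since no residual degree of freedom was left. Over both lines an additive model of line and SCS was fitted with edgeR's quasi-likelihood test (Benjamini-Hochberg adjustment over all loci, threshold 0.05), with the GC trend of each line as an offset, and with DESeq2, and mitochondrial loci were left out before TMM in a further run; these were chosen after seeing the data. GC content was taken from GENCODE 29 transcripts (98.9% of loci) and its trend fitted with lowess (span 0.3, statsmodels 0.14.6). Other tools were Python 3.11.15, numpy 2.4.6, pandas 2.3.3, scipy 1.17.1 and matplotlib 3.10.9. The scripts were tested on simulated data. The alternatives numbered 13: DESeq2 1.42.0 size factors, total fragments, the authors' size factors, a prior count of 0.5, no filter, a filter of 5 CPM, thinning to 507692 nuclear fragments, subtraction of the GC, expression or length trend, FPKM plus 0.1 or plus 1, and loci of 1 gene.

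The members and lists were chosen with earlier results of these data known. All 32 genes are given. Of the other lists, the loci called are named, with values for the leading ones, and some loci counted in those lists are not reported here by name.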

Additional observations from a re-analysis of the deposited data

Results flagged for a closer look

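MVK and TM7SF2 were called in opposite directions in the lines. MVK had a log2 fold change of 0.98 in HT-29 and -1.17 in NCM460, and TM7SF2 had 0.78 in HT-29 and -0.94 in NCM460. The difference between the lines was 2.29 (0.95 to 3.70) for MVK and 1.75 (1.13 to 2.38) for TM7SF2, by an exact interval for counting error, and it was 1.67 (0.33 to 3.08) and 1.09 (0.46 to 1.72) with the GC trend of each line subtracted. With the trend subtracted the NCM460 values alone, -0.51 and -0.26, were not called. The difference was not tested over cultures, since each condition had 1 library.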

How the results depend on the processing

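Over the 13 alternatives, the number of members called higher ranged from 20 to 24 in HT-29 (22 as reported) and from 7 to 15 in NCM460 (10 as reported), and the median of the enzymes from 1.44 to 1.84 and from 0.13 to 1.10. On the FPKM scales no counting interval was used, so a call there, of a member or of any locus, needed the 1.5-fold change alone. No member was called lower in HT-29 except 3 under FPKM plus 0.1 and 3 under FPKM plus 1. In NCM460 the members called lower numbered 4 as reported, 0 with total fragments, 0 with the GC trend subtracted, 7 under FPKM plus 0.1 and 7 under FPKM plus 1. Directions turned for SOAT1 in NCM460, at -0.0016 with the GC trend subtracted, -0.80 under FPKM plus 0.1 and -0.71 under FPKM plus 1, and for STARD4 in NCM460, at -0.17 and -0.16 under these FPKM scales. The causes were not tested. In HT-29, 19 of 22 calls held under every alternative; GGPS1 and EBP were lost on the FPKM scales and NSDHL after thinning. In NCM460, 6 of 10 higher calls held (HMGCS1, IDI1, FDFT1, CYP51A1, MSMO1 and INSIG1), and none of the 4 lower calls did.

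Over all loci, calls higher and lower were 2040 and 1799 in HT-29 and became 3148 and 1115 with total fragments, 1320 and 1393 after thinning to fewer fragments, 2696 and 3729 under FPKM plus 0.1, and 2118 and 3100 under FPKM plus 1. In NCM460, 1943 and 1747 became 3945 and 248 with total fragments, 780 and 831 with the GC trend subtracted, 1577 and 2182 with the authors' size factors, 3192 and 5238 under FPKM plus 0.1, and 2822 and 4652 under FPKM plus 1. Leaving out the mitochondrial loci before TMM gave 22 and 0 members in HT-29 and 10 and 4 in NCM460, as reported. With line as a block, 2 members passed higher in edgeR, 4 with the GC trend of each line in that fit, and 5 in DESeq2 (HMGCS1, IDI1, CYP51A1, MSMO1 and INSIG1), with 0 lower in each; DESeq2 gave no adjusted p for 17 of the 31, and over all loci it called 15 higher and 12 lower. These runs were chosen after seeing the data. Pairing was limited to control and SCS within each line, in the model with line as a block, since the labels give no replicate numbers. No replicate could be left out, since without 1 library that model had no residual degree of freedom. Depth limits NCM460 most, where 8 fragments or fewer lay behind the control value of 7 of the 10 genes called higher.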
